A study of Mus musculus with 18 samples.

Results

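The 50 genes described here are a list of cell cycle and proliferation genes chosen by symbol, and each symbol matched 1 gene among the 46078 genes of the deposited count table. They were divided into 18 S phase genes, which license and copy DNA, 28 mitosis genes, which build the spindle, condense and separate the chromosomes and destroy the mitotic cyclins, and 4 regulators (E2f1, E2f8, Foxm1 and Melk). All 50 passed the filter on low counts that left 14714 genes for testing. Their values were measured in 18 bulk SMART-seq libraries, full-length cDNA amplified from 200 sorted cells each, in 6 groups of 3 libraries. The mice were C57BL/6 and 8 weeks old. Control mice carried Ncr1-Cre, which makes Cre recombinase in cells that express the receptor NKp46 (gene Ncr1). RARa403 mice carried the same Ncr1-Cre and, in addition, RARalpha403 at the Rosa26 locus, a truncated retinoic acid receptor alpha that acts as a dominant negative and that Cre switches on. Both genotypes thus carried Cre, and RARa403 could be switched on only in cells of the Ncr1 lineage and their progeny. ILC1s, innate lymphoid cells of type 1 that live in tissues and make interferon-gamma, were sorted from liver and from spleen as CD3- NK1.1+ NKp46+ cells with CD49a, low CD49b and IL-7R, and natural killer (NK) cells, their circulating cytotoxic relatives, were sorted from liver as CD49b+ cells without CD49a. No label tells whether libraries came from the same animal, so p-values reflect only the spread among the libraries at hand. By its title, the series concerns the need of ILC1s for signals through the retinoic acid receptor.

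A cell enters the cycle when cyclin-dependent kinases release E2F factors from the retinoblastoma family, and E2F then switches on the genes for helicase loading, nucleotide supply and DNA synthesis. A later wave of genes, driven by B-Myb with the MuvB complex and by FoxM1, supplies the cyclins, kinases, kinetochore and spindle proteins of mitosis, and the anaphase-promoting complex then destroys many of them. In resting cells the DREAM complex represses both waves, the first through E2F sites and the second through a motif called CHR. Mature NK cells and ILC1s of adult mice are mostly resting and can be driven to divide by cytokines such as interleukin-15. In bulk libraries a smaller share of dividing cells and less of a transcript per dividing cell cannot be told apart.

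Library totals ran from 3452279 to 9038767 counts, so 3 counts, the limit that a count of 0 allows, correspond to 0.332 to 0.869 CPM (counts scaled to library size). The summed ILC1 markers were 1573 to 3525 CPM in ILC1 libraries and 53.7 to 410.2 CPM in NK libraries. Counts of the Rosa26 transcript Gt(ROSA)26Sor were 104 to 1260 across the 9 controls and 0 to 10 in 7 of the 9 RARa403 libraries. The other 2, the libraries labelled liver ILC1 RARa403 1 and spleen ILC1 RARa403 1, had 365 counts or more and so went against their label, and the medians and fold changes of members that rest on them are given with and without them. Liver NK RARa403 1 stood apart. Of 2735 genes above 50 CPM in every other library, 192 (7.02%) had 3 counts or fewer in it, against 0 in the same check of each other library. Replicate 1 of every group has a description that opens with 1 and replicates 2 and 3 one that opens with 2, and the labels do not say what the digit stands for. Values from replicates 2 and 3 alone are within 1 opening digit, and the other opening digit holds 1 library per group. Libraries of the same genotype and replicate number also share the closing digit of the description across populations, and its meaning is not given either. The second X chromosome is silenced by Xist in female cells, and 1 library of every group (control 3 and RARa403 2) held 596 to 1404 counts of it, against 0 to 28 in the others.

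Promoters of the members are shown first, because the 2 lists differ in the motifs named above. Of the 50 members, 40 had an entry in the RefSeq promoter table (GRCm38.p6, windows of 250 bases before to 50 after each start), and 27025 genes of the whole table served as the background. The CHR motif was searched as TTTGAA, the E2F motif as TTCCCGC or TTGGCGC or TTCGCGC and the CCAAT box as CCAAT, each on both strands. The CHR letters lay in 16 of 22 mitosis promoters (72.7%), 2 of 15 S phase promoters (13.3%) and 20.2% of all promoters. The E2F letters showed the opposite distribution, with 8 of 15 S phase promoters (53.3%), 3 of 22 mitosis promoters (13.6%) and 9.2% of all. CHR and CCAAT letters occurred together in 15 of 22 mitosis promoters (68.2%), 2 of 15 S phase promoters and 8.97% of all. A match is a description of the letters, not of a bound site. The 100 bases before the start are printed for 1 S phase gene and 3 mitosis genes whose values are described in detail, 5′ to 3′ along the gene, with E2F, CHR and CCAAT matches in capitals.
Mcm6 (chr1:128359706-128359805, minus strand): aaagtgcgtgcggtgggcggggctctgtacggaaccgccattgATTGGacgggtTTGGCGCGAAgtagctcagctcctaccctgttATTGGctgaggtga
Ube2c (chr2:164769829-164769928, plus strand): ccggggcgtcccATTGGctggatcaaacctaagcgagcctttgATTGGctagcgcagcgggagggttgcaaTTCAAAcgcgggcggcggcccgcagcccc
Top2a (chr11:99024190-99024289, minus strand): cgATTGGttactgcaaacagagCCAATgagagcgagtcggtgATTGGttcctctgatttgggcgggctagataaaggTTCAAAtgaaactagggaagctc
Cdc20 (chr4:118437344-118437443, minus strand): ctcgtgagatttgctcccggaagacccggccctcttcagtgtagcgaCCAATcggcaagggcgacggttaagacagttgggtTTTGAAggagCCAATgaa
In Mcm6 the matches TTGGCGC and GCGCGAA, the reverse complement of TTCGCGC, overlap and begin 46 and 43 bases before the start, between CCAAT boxes in the reverse orientation at 57 and 14 bases. The CHR letters begin 29 bases before the start in Ube2c, 23 in Top2a and 18 in Cdc20. CCAAT boxes begin 88 and 57 bases before the start in Ube2c, 98, 78 and 58 in Top2a, and 53 and 8 in Cdc20. Starts are those of RefSeq. The GENCODE gene annotation places the upstream end of Ube2c at chr2:164769898 and of Cdc20 at chr4:118437352, within the printed stretches. The CHR letters of Ube2c and the CCAAT box at 8 bases in Cdc20 thus lie inside the annotated gene.

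The S phase and mitosis genes differed in level and in how far they varied between libraries. Over the 18 libraries the median S phase member had a mean of 5.42 log2 CPM and an SD of 0.86, and the median mitosis member a mean of 3.25 and an SD of 2.47. The median over all 14714 genes tested was a mean of 4.05 and an SD of 1.21. By role, the 6 MCM helicase subunits varied least (median SD 0.64) and were the highest per length, at a median of 4.75 log2 CPM per kb of exon. Pcna and Chaf1b, the 2 fork genes, were next at 3.54 log2 CPM per kb with a median SD of 0.90, and the 4 nucleotide synthesis genes stood at 2.84 log2 CPM per kb with a median SD of 1.11. The 7 kinetochore genes (0.77 log2 CPM per kb), the 3 mitotic kinases (1.42) and the 7 spindle genes (1.502) had median SDs of 1.94, 2.55 and 1.93. Low counts vary more on a log scale, and the mitosis genes were the lower list, so the part of level in this spread was not tested. Summed over each list, S phase transcripts ran from 787 to 2339 CPM, a 2.97-fold range, and mitosis transcripts from 136.6 to 3406 CPM, a 24.9-fold range.

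**Figure D1:**
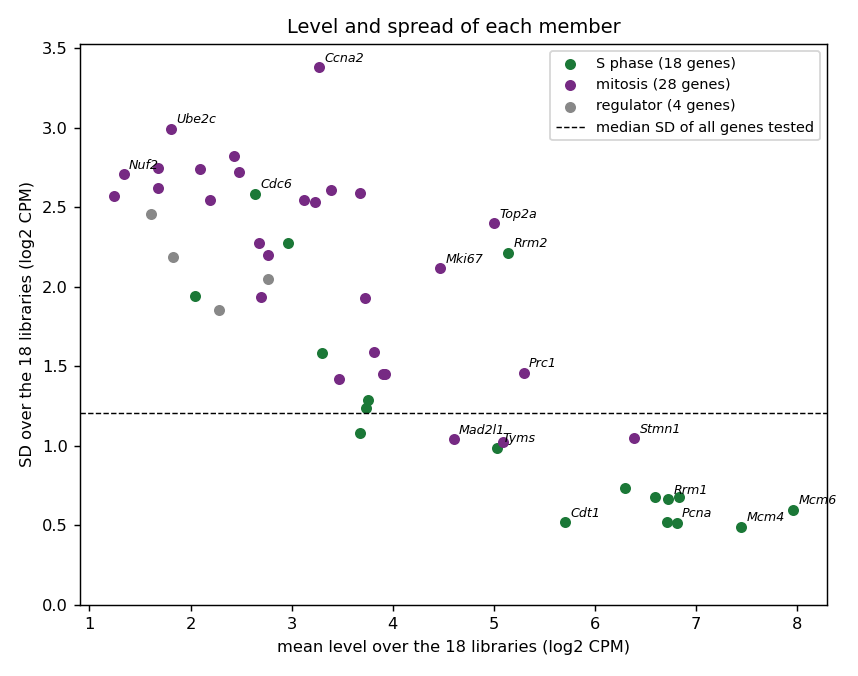
Each point is 1 of the 50 members, with its mean level over the 18 libraries (log2 CPM) on the x axis and the SD over the same libraries on the y axis, coloured by list. The MCM subunits sit at the lower right with SDs of 0.49 to 0.73, and most mitosis genes sit above the median SD of all genes tested, 1.21.

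**Figure D2:**
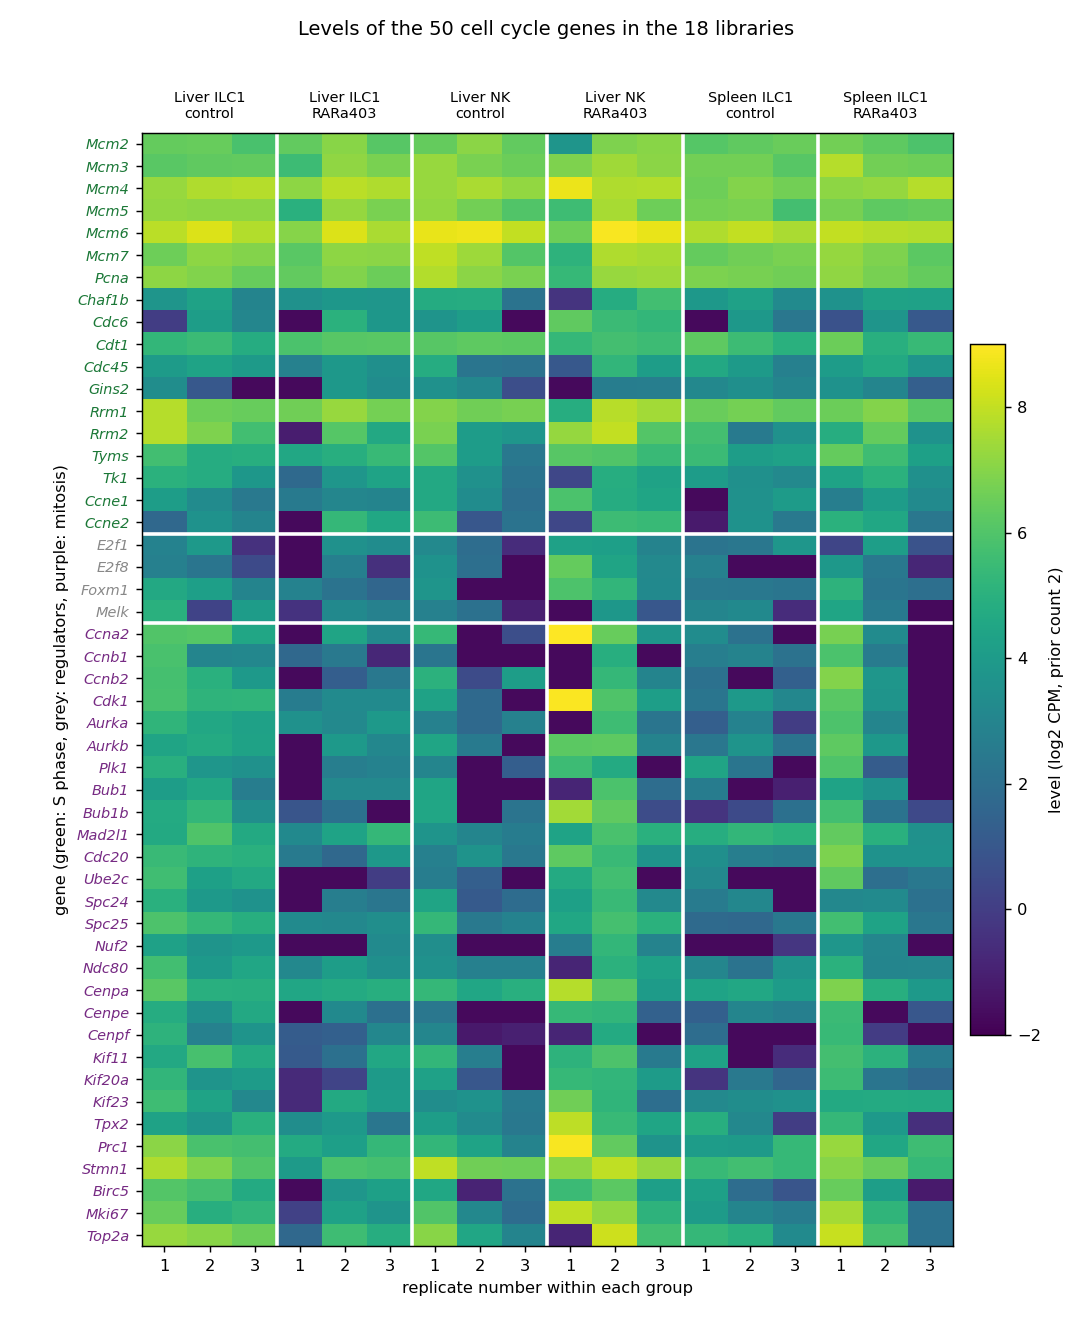
Rows are the 50 members ordered by list and role, columns the 18 libraries by group, and colour the log2 CPM from -2 to 9, where a count of 0 is -1.70. The MCM rows are bright in most columns, though Mcm2 is 3.75 in liver NK RARa403 1 and Mcm5 4.98 in the library labelled liver ILC1 RARa403 1. The mitosis rows split the columns into libraries with high and low values inside most groups.

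The MCM subunits form the hexameric helicase that is loaded on DNA before S phase, and all were read in every library. Values are TMM-scaled CPM, given for replicates 1, 2 and 3 in that order, and positions are from the GENCODE annotation of GRCm38 (mm10). Mcm2 (ENSMUSG00000002870, chr6:88883474-88898780) in liver ILC1s stood at 85.2, 87.4 and 57.7 CPM in control and 81.00, 132 and 69.5 CPM in RARa403 libraries. Mcm2 in liver NK cells stood at 85.2, 135 and 80.6 CPM in control and 13.2, 118 and 131 CPM in RARa403 libraries. Mcm2 in spleen ILC1s stood at 68.5, 78.4 and 89.4 CPM in control and 99.4, 75.9 and 59.8 CPM in RARa403 libraries. The genotypes overlapped for Mcm2 in each population, and liver NK RARa403 1 was the lowest of the 18 libraries. Mcm3 (ENSMUSG00000041859, chr1:20802968-20820312) in liver ILC1s stood at 71.6, 79.1 and 82.4 CPM in control and 46.4, 146 and 109 CPM in RARa403 libraries. Mcm3 in liver NK cells stood at 157, 112 and 92.6 CPM in control and 116, 170.2 and 136 CPM in RARa403 libraries. Mcm3 in spleen ILC1s stood at 101, 101 and 70.5 CPM in control and 217, 100.2 and 94.1 CPM in RARa403 libraries. Control NK libraries all lay above control liver ILC1 libraries for Mcm3, while the genotypes overlapped in each population. Mcm4 (ENSMUSG00000022673, chr16:15623897-15637400) in liver ILC1s stood at 158, 209 and 216 CPM in control and 138, 235 and 207 CPM in RARa403 libraries. Mcm4 in liver NK cells stood at 159, 195 and 149 CPM in control and 403.3, 208 and 214 CPM in RARa403 libraries. Mcm4 in spleen ILC1s stood at 94.5, 124 and 102 CPM in control and 140.1, 154 and 218 CPM in RARa403 libraries. RARa403 libraries lay above all control libraries for Mcm4 in liver NK cells and in spleen ILC1s, and the genotypes overlapped in liver ILC1s.

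Mcm5 (ENSMUSG00000005410, chr8:75109569-75128439) in liver ILC1s stood at 148, 139 and 142 CPM in control and 31.1, 154 and 111 CPM in RARa403 libraries. Mcm5 in liver NK cells stood at 148, 99.5 and 64.6 CPM in control and 48.1, 189 and 93.8 CPM in RARa403 libraries. Mcm5 in spleen ILC1s stood at 104, 110.2 and 51.5 CPM in control and 108, 76.1 and 84.4 CPM in RARa403 libraries. The 3 control liver ILC1 libraries were close together for Mcm5, and the library labelled liver ILC1 RARa403 1 was the lowest of all. Mcm6 (ENSMUSG00000026355, chr1:128331590-128359664), whose promoter is printed above, stood in liver ILC1s at 234, 344 and 211 CPM in control and 128, 343 and 194 CPM in RARa403 libraries. Mcm6 in liver NK cells stood at 401, 418 and 252 CPM in control and 96.2, 477 and 399 CPM in RARa403 libraries. Mcm6 in spleen ILC1s stood at 203, 252 and 193 CPM in control and 257, 223 and 213 CPM in RARa403 libraries. Spleen ILC1 libraries of both genotypes lay close together for Mcm6, and the lowest values were those of liver NK RARa403 1 and the library labelled liver ILC1 RARa403 1. Mcm7 (ENSMUSG00000029730, chr5:138164583-138172422) in liver ILC1s stood at 93.6, 140.1 and 123.3 CPM in control and 72.9, 141 and 136 CPM in RARa403 libraries. Mcm7 in liver NK cells stood at 248, 169 and 66.5 CPM in control and 34.7, 205 and 189 CPM in RARa403 libraries. Mcm7 in spleen ILC1s stood at 83.1, 97.8 and 109 CPM in control and 154, 116 and 75.7 CPM in RARa403 libraries. Genotypes overlapped for Mcm7 in every population. Pcna (ENSMUSG00000027342, chr2:132249162-132253314) encodes the sliding clamp that holds DNA polymerase on its template. Pcna in liver ILC1s stood at 139, 122 and 87.6 CPM in control and 82.1, 121 and 92.04 CPM in RARa403 libraries. Pcna in liver NK cells stood at 215, 136 and 110.4 CPM in control and 41.04, 159 and 168 CPM in RARa403 libraries. Pcna in spleen ILC1s stood at 113, 108 and 98.1 CPM in control and 145, 107 and 84.2 CPM in RARa403 libraries. The genotypes overlapped for Pcna everywhere, and liver NK RARa403 1 was again the lowest library.

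The remaining S phase genes were more uneven. Chaf1b, a subunit of the chromatin assembly factor behind the replication fork, ranged from 0.489 to 51.2 CPM and was highest in liver NK RARa403 3. Cdc6, which helps load the MCM helicase, ranged from 0 to 80.4 CPM, with 0 counts in 3 libraries, and was highest in liver NK RARa403 1. Cdt1, the second loading factor, is described with the comparisons below and ranged from 27.8 to 92.9 CPM and was highest in the library labelled spleen ILC1 RARa403 1. Cdc45 and Gins2 belong to the active helicase. Cdc45 ranged from 1.71 to 37.8 CPM and was highest in liver NK RARa403 2. Gins2 ranged from 0 to 14.2 CPM, with 0 counts in 3 libraries, and was highest in liver ILC1 RARa403 2. Rrm1 and Rrm2 encode the large and small subunits of ribonucleotide reductase, which makes deoxynucleotides. Rrm1 ranged from 28.6 to 227 CPM and was highest in liver NK RARa403 2. Rrm2 ranged from 0.156 to 253 CPM and was highest in liver NK RARa403 2. Rrm2 thus spanned a far wider range than its partner subunit, with an SD over the 18 libraries of 2.21 log2 units against 0.66. Tyms, thymidylate synthase, ranged from 4.94 to 83.3 CPM and was highest in the library labelled spleen ILC1 RARa403 1. Tk1, thymidine kinase of the salvage route, ranged from 0.977 to 32.4 CPM and was highest in liver ILC1 control 1. The E-type cyclins, which start S phase with Cdk2, were present at low levels. Ccne1 ranged from 0 to 59.4 CPM, with 0 counts in 1 library, and was highest in liver NK RARa403 1. Ccne2 ranged from 0 to 46.2 CPM, with 0 counts in 1 library, and was highest in liver NK RARa403 2.

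The 4 regulators were the lowest role per length, at a median of 0.25 log2 CPM per kb. E2f1, an activating E2F, ranged from 0 to 19.3 CPM, with 0 counts in 1 library, and was highest in liver NK RARa403 1. E2f8, a repressive E2F, ranged from 0 to 83.1 CPM, with 0 counts in 4 libraries, and was highest in liver NK RARa403 1. Foxm1, the factor of the mitotic wave, ranged from 0 to 61.1 CPM, with 0 counts in 2 libraries, and was highest in liver NK RARa403 1. Melk, a kinase used as a proliferation marker, ranged from 0 to 31.2 CPM, with 0 counts in 2 libraries, and was highest in liver ILC1 control 1.

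Among the mitosis genes, Mki67 (ENSMUSG00000031004, chr7:135689784-135716361) encodes Ki-67, which coats mitotic chromosomes and marks cycling cells. Mki67 in liver ILC1s stood at 87.6, 29.5 and 37.7 CPM in control and 0.779, 19.2 and 12.7 CPM in RARa403 libraries. Mki67 in liver NK cells stood at 63.9, 8.45 and 3.35 CPM in control and 249, 147 and 34.4 CPM in RARa403 libraries. Mki67 in spleen ILC1s stood at 16.3, 7.77 and 5.82 CPM in control and 181, 36.1 and 4.02 CPM in RARa403 libraries. All liver ILC1 RARa403 libraries lay below all liver ILC1 controls, while the genotypes overlapped in NK cells and in spleen ILC1s, where the library labelled spleen ILC1 RARa403 1 was far above the rest. Top2a (ENSMUSG00000020914, chr11:98992943-99024189) encodes the topoisomerase that untangles sister chromosomes. Top2a in liver ILC1s stood at 158, 134 and 92.1 CPM in control and 2.96, 47.95 and 28.7 CPM in RARa403 libraries. Top2a in liver NK cells stood at 131, 22.8 and 7.41 CPM in control and 0.244, 289 and 50.1 CPM in RARa403 libraries. Top2a in spleen ILC1s stood at 39.6, 31.1 and 9.17 CPM in control and 268, 53.9 and 4.02 CPM in RARa403 libraries. The genotypes did not overlap for Top2a in liver ILC1s, and liver NK RARa403 1, the highest library for Mki67, was the lowest for Top2a. Birc5 (ENSMUSG00000017716, chr11:117849251-117855743) encodes survivin, a subunit of the chromosomal passenger complex. Birc5 in liver ILC1s stood at 66.4, 51.9 and 26.01 CPM in control and 0, 13.3 and 18.5 CPM in RARa403 libraries. Birc5 in liver NK cells stood at 23.3, 0.222 and 4.06 CPM in control and 45.4, 73.9 and 18.02 CPM in RARa403 libraries. Birc5 in spleen ILC1s stood at 18.6, 3.55 and 1.59 CPM in control and 85.96, 17.5 and 0.13 CPM in RARa403 libraries. Liver ILC1 controls again lay above all liver ILC1 RARa403 libraries for Birc5. Ccnb1 (ENSMUSG00000041431, chr13:100778650-100786570) encodes cyclin B1, the partner of Cdk1 at entry into mitosis. Ccnb1 in liver ILC1s stood at 56.97, 7.74 and 8.24 CPM in control and 2.96, 5.09 and 0.282 CPM in RARa403 libraries. Ccnb1 in liver NK cells stood at 4.51, 0 and 0 CPM in control and 0, 29.2 and 0 CPM in RARa403 libraries. Ccnb1 in spleen ILC1s stood at 6.28, 7.36 and 4.06 CPM in control and 59.1, 5.74 and 0 CPM in RARa403 libraries. Cyclin B1 reached at most 8.24 CPM outside 3 libraries, liver ILC1 control 1, liver NK RARa403 2 and the library labelled spleen ILC1 RARa403 1.

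Of the other mitosis genes, those that no comparison below turns on are given by their range. Ccna2, cyclin A2, which acts from S phase to early mitosis, ranged from 0 to 873 CPM, with 0 counts in 4 libraries, and was highest in liver NK RARa403 1. Aurka, the kinase of the spindle poles, ranged from 0 to 59.99 CPM, with 0 counts in 2 libraries, and was highest in the library labelled spleen ILC1 RARa403 1. Aurkb, the kinase of the passenger complex, ranged from 0 to 77.7 CPM, with 0 counts in 3 libraries, and was highest in liver NK RARa403 2. Plk1, a kinase needed for spindle assembly and cytokinesis, ranged from 0 to 62.5 CPM, with 0 counts in 5 libraries, and was highest in the library labelled spleen ILC1 RARa403 1. The checkpoint kinases Bub1 and Bub1b delay anaphase until all chromosomes are attached. Bub1 ranged from 0 to 59.02 CPM, with 0 counts in 5 libraries, and was highest in liver NK RARa403 2. Bub1b ranged from 0 to 180.0 CPM, with 0 counts in 2 libraries, and was highest in liver NK RARa403 1. Kinetochore genes build the attachment site on the centromere. Spc24 ranged from 0 to 43.4 CPM, with 0 counts in 2 libraries, and was highest in liver NK RARa403 2. Ndc80 ranged from 0.244 to 51.1 CPM and was highest in liver ILC1 control 1. Cenpa, the centromeric histone, ranged from 14.8 to 216 CPM and was highest in liver NK RARa403 1. Cenpf ranged from 0 to 41.9 CPM, with 0 counts in 4 libraries, and was highest in the library labelled spleen ILC1 RARa403 1. The kinesins move or slide microtubules. Kif11 ranged from 0 to 61.2 CPM, with 0 counts in 2 libraries, and was highest in liver NK RARa403 2. Kif20a ranged from 0 to 46.2 CPM, with 0 counts in 1 library, and was highest in the library labelled spleen ILC1 RARa403 1. Kif23 ranged from 0.311 to 96.98 CPM and was highest in liver NK RARa403 1. Liver NK RARa403 1, liver NK RARa403 2 and the library labelled spleen ILC1 RARa403 1 thus hold all of these maxima but that of Ndc80.

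The count of members that were silent followed the same lines. Liver ILC1 control libraries had 0 mitosis members without a count, and each had more than 3 counts for all 28. The library labelled liver ILC1 RARa403 1 had 10 mitosis members at 0, liver NK control 2 and 3 had 7 and 9, spleen ILC1 control 2 and 3 had 6 and 5, and spleen ILC1 RARa403 3 had 10. Liver NK RARa403 1 combined extremes, with 3 mitosis members at 0 (Ccnb1, Ccnb2 and Aurka) beside 873 CPM of Ccna2, 483 CPM of Cdk1 and 476 CPM of Prc1. The deviations of its mitosis members from their medians over the other 17 libraries had an SD of 3.48 log2 units. On the same measure, each of those libraries against the rest, the SD was 0.80 to 2.05. Liver NK RARa403 1 held the highest summed mitosis signal, 3406 CPM, through a few genes. Its list mean (4.42 log2 CPM, rank 6 of 18) and its sum (rank 1) thus gave different orders.

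As a list, the mitosis members had a mean of 5.496, 4.78 and 4.45 log2 CPM in the 3 control liver ILC1 libraries and 0.83, 2.97 and 3.21 in the RARa403 liver ILC1 libraries. The mitosis mean was 4.32, 1.45 and 1.20 in control NK libraries and 4.42, 5.85 and 2.86 in RARa403 NK libraries. In spleen ILC1s it was 2.89, 2.12 and 1.56 in control and 5.94, 3.46 and 0.99 in RARa403 libraries. The genotypes overlapped in NK cells and spleen ILC1s and did not in liver ILC1s, where the RARa403 libraries were lower with and without the library labelled liver ILC1 RARa403 1. Groups in order of the mitosis mean were control liver ILC1s (4.91 ± 0.53, SD, n = 3), RARa403 NK cells (4.38 ± 1.49), RARa403 spleen ILC1s (3.46 ± 2.47), RARa403 liver ILC1s (2.34 ± 1.31), control NK cells (2.32 ± 1.73) and control spleen ILC1s (2.19 ± 0.67). No neighbours in this order differed by more than their spread. Within the libraries with Xist, RARa403 and control stood at 2.97 and 4.45 in liver ILC1s, 5.85 and 1.20 in NK cells and 3.46 and 1.56 in spleen ILC1s, with 1 library each. The S phase mean lay between 4.84 ± 0.31 (control spleen ILC1s) and 5.56 ± 1.10 (RARa403 NK cells), and the genotypes overlapped in all 3 populations.

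**Figure D3:**
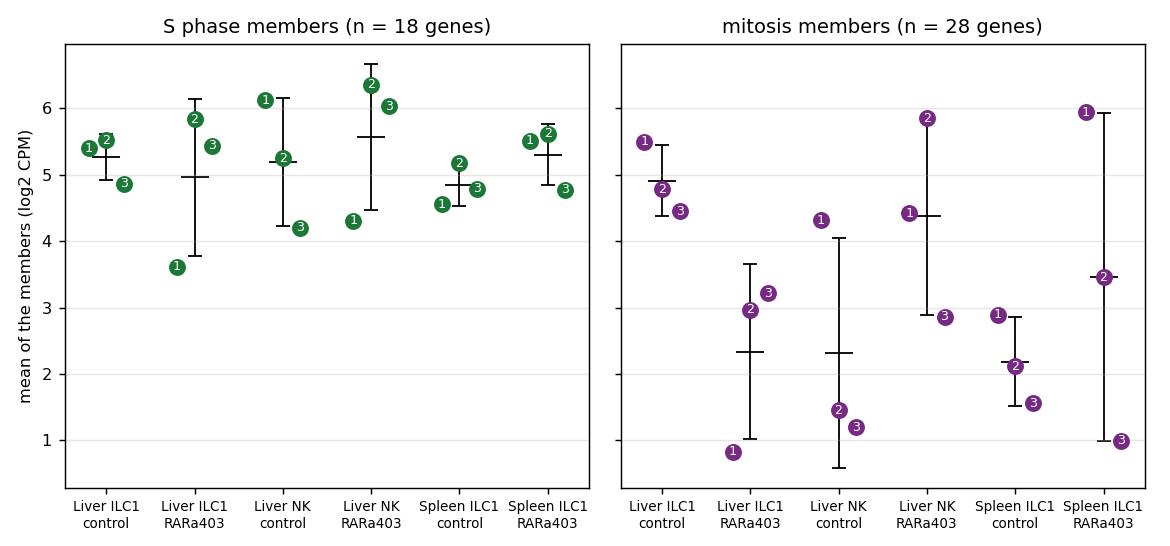
Points are the mean log2 CPM of the 18 S phase members and of the 28 mitosis members in each library, by group, with the group mean and SD. Mitosis means run from 0.83 to 5.94 and S phase means from 3.62 to 6.36, and the control and RARa403 points of the mitosis genes in liver ILC1s do not overlap.

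Liver ILC1s of RARa403 mice had lower values of the mitosis genes than those of control mice. All 28 mitosis members had a negative log2 fold change, with a median of -2.14, while the 18 S phase members had a median of -0.11 and the 14714 genes tested a median of 0.00. Of the 50 members, 22 were lower in all RARa403 libraries than in all control libraries, where 4.42% of all genes tested were lower without overlap. Of the 22, 20 were mitosis genes and the other 2 were Cdc45 and Foxm1. The mitosis members moved together across libraries, as described below. Counts of members, here and in the other comparisons, are thus not counts of separate observations. Cdt1 alone was higher without overlap, where 5.08% of all genes were. No member passed an adjusted p of 0.05 in edgeR's quasi-likelihood test (0 of 50, with 0% of all genes), and 5 had an unadjusted p under 0.05 (2.94% of all genes). DESeq2 called 0 members (0.224% of all genes) and limma-voom 0 (0%), and edgeR without the filter on low counts called 5 (Top2a, Bub1b, Ube2c, Ccna2 and Ccnb2), where it called 0.131% of 32798 genes.

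Stmn1 (ENSMUSG00000028832, chr4:134468320-134473843), which destabilises microtubules, had the smallest p. Stmn1 in liver ILC1s stood at 208, 121 and 65.2 CPM in control and 15.6, 59.3 and 53.4 CPM in RARa403 libraries. All RARa403 libraries lay below the controls, with a log2 fold change of -1.62 ± 0.57 (SE). Ube2c (ENSMUSG00000001403, chr2:164769898-164778822) is the ubiquitin-conjugating enzyme of the anaphase-promoting complex, and its promoter is printed above. Ube2c in liver ILC1s stood at 49.3, 18.6 and 24.3 CPM in control and 0, 0 and 0.706 CPM in RARa403 libraries. It was well read in each control and had 5 counts in all RARa403 libraries together, with a log2 fold change of -6.89 ± 2.498 (SE). Spc25 (ENSMUSG00000005233, chr2:69193895-69206194) is a subunit of the NDC80 complex that holds microtubules at the kinetochore. Spc25 in liver ILC1s stood at 60.9, 39.5 and 29.3 CPM in control and 9.35, 8.54 and 10.4 CPM in RARa403 libraries. The 3 RARa403 values were close together, with a log2 fold change of -2.19 ± 0.82 (SE). Cdc20 (ENSMUSG00000006398, chr4:118432901-118437352) activates the anaphase-promoting complex. Cdc20 in liver ILC1s stood at 43.9, 34.96 and 31.2 CPM in control and 5.296, 2.997 and 14.4 CPM in RARa403 libraries. The groups did not overlap, with a log2 fold change of -2.27 ± 0.89 (SE). Cdt1 (ENSMUSG00000006585, chr8:122568015-122573554) went the other way from these 4. Cdt1 in liver ILC1s stood at 38.2, 44.4 and 27.8 CPM in control and 59.5, 69.7 and 72.6 CPM in RARa403 libraries. Every RARa403 library was above every control, with a log2 fold change of 0.87 ± 0.41 (SE). These 5 had the smallest unadjusted p of the members at this level, and their adjusted p in edgeR was 1. Cdc20 overlaps Elovl1 and Ube2c overlaps Tnnc2 on the other strand, and without a stated strand setting their reads cannot be told apart, though Tnnc2 reached only 3 counts in any library.

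The library labelled liver ILC1 RARa403 1 was the lowest of the group. Without it, 20 mitosis members were lower without overlap (7.61% of all genes were), and the median of the 28 was -1.64. The log2 fold changes were then -1.22 for Stmn1, -6.35 for Ube2c, -2.18 for Spc25, -2.07 for Cdc20 and 0.95 for Cdt1. With replicates 2 and 3 only, 20 were lower without overlap (13.7% of all genes), the median mitosis fold change was -1.24 and that of the S phase members 0.08. Liver ILC1 control 1, whose mitosis mean was the highest of the group, moved the median to -1.58 when left out. Summed hepatocyte markers were 61.3 CPM in that library and 5.79 to 18.9 in the other 5 of the comparison. Erythroid markers were 2327 CPM in it, 1103 in the library labelled liver ILC1 RARa403 1 and 772 in RARa403 2, against at most 6.92 in the others. Summed NK markers were 3544 CPM in the library labelled liver ILC1 RARa403 1 and 1418 to 1907 CPM in the other 5. Of the 10 NK markers 8 had a positive fold change (median 0.93). Without overlap 0 were higher and 1 lower (5.08% and 4.42% of all genes). The part of these markers in the result was not tested.

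The other genes of the pathway, lists that hold no member, showed the same division. Of 63 other mitosis genes, 54 had a negative fold change in liver ILC1s (median -1.15). Without overlap 17 were lower (4.42% of all genes), and 0 passed the test (0% of all genes). Of 46 other S phase genes 27 had a positive fold change (median 0.11). Without overlap 4 were higher and 3 lower (5.08% and 4.42% of all genes). Of 27 genes of G1 control and its brakes 23 were negative, with a median of -0.17. Of 12 genes linked to lymphocyte quiescence 10 were positive, with a median of 0.38. Among these, Tsc22d3, the glucocorticoid-induced leucine zipper, stood at 7.52 ± 0.17 log2 CPM (SD, n = 3) in control and 8.902 ± 0.64 in RARa403 libraries, with a log2 fold change of 1.48 ± 0.50 (SE, adjusted p = 1) in edgeR's test.

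**Figure D4:**
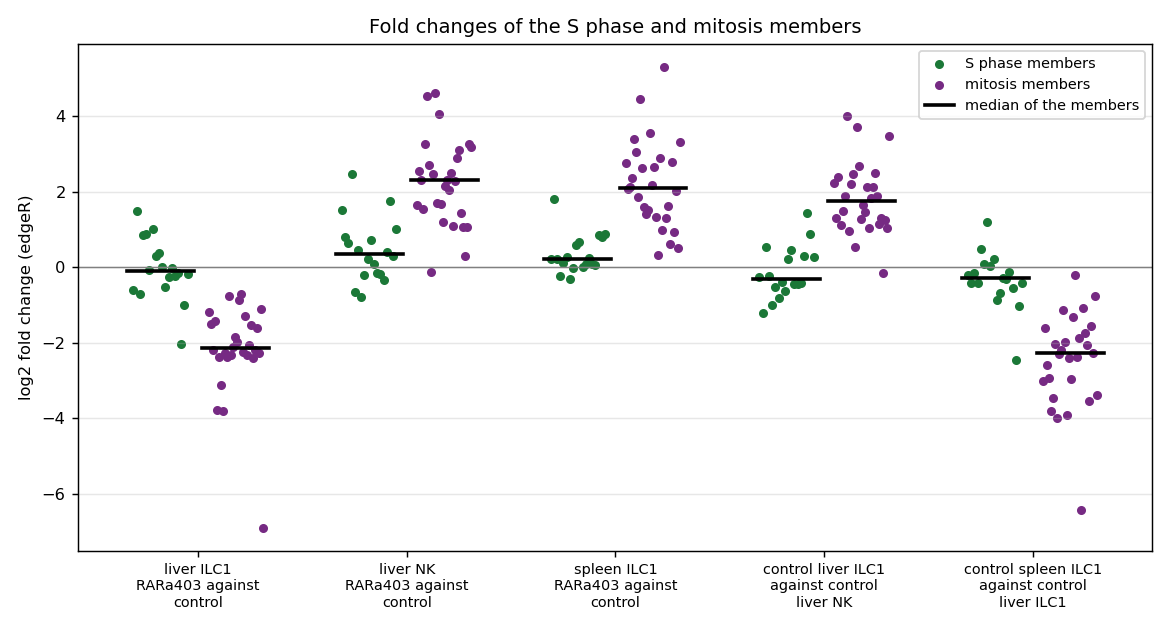
Each point is the log2 fold change of 1 member, S phase or mitosis, in each of the 5 comparisons, with the list medians marked. In liver ILC1s, RARa403 against control, all 28 mitosis points lie below 0 with a median of -2.14, while the S phase points centre near 0, and control spleen against control liver ILC1s has 28 mitosis points below 0 with a median of -2.28.

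In liver NK cells the mitosis genes had higher values in RARa403 than in control libraries, with wide spread in both groups. Of the 28 mitosis members 27 had a positive log2 fold change, with a median of 2.30, and the S phase members had a median of 0.36. Only 5 members were higher without overlap (Cdc6, Mcm4, Tpx2, Cdc20 and Mad2l1), where 3.77% of all genes were, and 1, Cdt1, was lower, where 4.72% were. In edgeR 0 members passed the adjusted threshold (0% of all genes) and 7 had an unadjusted p under 0.05 (9.64% of all genes). DESeq2 called 1 member (Prc1, with 1.05% of all genes), limma-voom 0 (0%) and edgeR without the filter 7 (1.59%).

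Prc1 (ENSMUSG00000038943, chr7:80294450-80316259) bundles the microtubules of the central spindle. Prc1 in liver NK cells stood at 38.6, 20.8 and 7.23 CPM in control and 476, 82.1 and 12.2 CPM in RARa403 libraries. The groups overlapped and liver NK RARa403 1 held by far the highest value, with a log2 fold change of 3.095 ± 1.03 (SE). Mad2l1 (ENSMUSG00000029910, chr6:66535390-66547220) encodes MAD2, the checkpoint protein that holds back CDC20. Mad2l1 in liver NK cells stood at 12.4, 7.78 and 5.82 CPM in control and 20.3, 56.9 and 31.04 CPM in RARa403 libraries. All RARa403 libraries were above all controls, with a log2 fold change of 2.05 ± 0.71 (SE). Cdc20 in liver NK cells stood at 6.69, 12.2 and 4.94 CPM in control and 75.97, 43.99 and 12.3 CPM in RARa403 libraries. RARa403 3 lay just above the highest control, with a log2 fold change of 2.46 ± 0.89 (SE). Cdk1 (ENSMUSG00000019942, chr10:69335146-69352938) is the kinase that drives entry into mitosis. Cdk1 in liver NK cells stood at 19.9, 3.11 and 0 CPM in control and 483, 63.1 and 17.5 CPM in RARa403 libraries. Control 1 was above RARa403 3, so the groups overlapped, with a log2 fold change of 4.61 ± 1.68 (SE). Tpx2 (ENSMUSG00000027469, chr2:152847964-152895321) activates Aurora A on the spindle. Tpx2 in liver NK cells stood at 16.9, 9.67 and 4.94 CPM in control and 239.7, 42.3 and 22.03 CPM in RARa403 libraries. Here the groups did not overlap, with a log2 fold change of 3.26 ± 1.302 (SE). Cdt1 in liver NK cells stood at 71.1, 75.9 and 73.8 CPM in control and 40.3, 52.3 and 46.6 CPM in RARa403 libraries. For Cdt1 the RARa403 libraries lay below the controls, the reverse of the order in liver ILC1s, with a log2 fold change of -0.66 ± 0.41 (SE). Stmn1 in liver NK cells stood at 246, 96.8 and 94.9 CPM in control and 138, 249 and 153 CPM in RARa403 libraries. Stmn1 overlapped between the genotypes. Adjusted p in edgeR's test was 0.428 to 0.467 for the first 5 of these genes.

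The NK result rested on single libraries of both groups. Control 1 had a mitosis mean of 4.32, and without it the median mitosis fold change was 4.01 and 15 mitosis members were higher without overlap (6.86% of all genes were). Without RARa403 3, 16 were higher without overlap (9.05% of all genes). Without RARa403 1, which stood apart in quality, the median was 1.89 and 4 of 28 mitosis members (9.56% of all genes) were higher without overlap. The log2 fold changes of Prc1, Cdk1 and Tpx2 were then 1.09, 2.40 and 1.61. Replicates 2 and 3 only gave a median of 3.54 with 17 of 28 mitosis members higher without overlap, where 16.4% of all genes were. The S phase median was 0.87 in that setting and -0.21 without RARa403 2. Summed NK markers were 4817 CPM in RARa403 1 and 10560 to 15390 in the other 5 libraries, and ILC1 markers 410.2 CPM against 53.7 to 244, so this library also stood apart in its cell markers, and their part was not tested.

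Other mitosis genes had a positive fold change in 57 of 63 cases in NK cells (median 1.47), with 8 higher without overlap (3.77% of all genes). Of these 63 genes, 13 had an unadjusted p under 0.05 in edgeR (9.64% of all genes). Other S phase genes were positive in 34 of 46 (median 0.44). Pola2, a subunit of DNA polymerase alpha, stood at 5.72 ± 0.32 log2 CPM (SD, n = 3) in control and 6.91 ± 1.56 in RARa403 libraries, with a log2 fold change of 1.77 ± 0.56 (SE, adjusted p = 0.428) in edgeR. Gins4, of the same complex as Gins2, stood at 6.51 ± 0.20 and 7.47 ± 2.03, with a log2 fold change of 1.94 ± 0.67 (SE, adjusted p = 0.428). Among 27 genes of G1 control and brakes 17 were positive (median 0.49). Rbl1, the retinoblastoma relative p107, stood at 6.24 ± 0.17 and 7.49 ± 2.22, with a log2 fold change of 2.41 ± 0.74 (SE, adjusted p = 0.428). Cdk6, a G1 kinase, stood at 5.56 ± 0.43 and 6.996 ± 1.44, with a log2 fold change of 1.89 ± 0.69 (SE, adjusted p = 0.431). Of the quiescence genes 6 of 12 were positive, and Foxp1, a factor of lymphocyte quiescence, stood at 7.93 ± 0.22 and 8.71 ± 1.898, with a log2 fold change of 1.65 ± 0.63 (SE, adjusted p = 0.441). These 5 fold changes rested on liver NK RARa403 1. Without it they were 0.27 for Pola2, -0.21 for Gins4, -0.054 for Rbl1, 0.61 for Cdk6 and -0.33 for Foxp1, so that 3 of the 5 turned direction.

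In spleen ILC1s the mitosis genes had higher fitted values in RARa403 than in control libraries, and most of that difference was gone without 1 library. All 28 mitosis members had a positive log2 fold change (median 2.09), and the S phase members had a median of 0.23. Only 3 members were higher without overlap (Mcm4, Cdc20 and Kif23), where 4.12% of all genes were, and 0 were lower, where 4.87% were. In edgeR 0 members passed (0% of all genes) and 4 had an unadjusted p under 0.05 (2.89% of all genes). DESeq2 called 0 (0.136% of all genes) and limma-voom 0 (0%), and edgeR without the filter called 3 (Ccna2, Mki67 and Ccnb2), with 0.0976% of all genes.

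Spc25 in spleen ILC1s stood at 3.14, 3.000 and 4.94 CPM in control and 50.2, 20.8 and 4.797 CPM in RARa403 libraries. Spc25 was uniformly low in the controls and high in RARa403 1 and 2 but not in 3, with a log2 fold change of 2.77 ± 0.84 (SE). Cdc20 in spleen ILC1s stood at 10.8, 6.14 and 5.47 CPM in control and 114, 11.97 and 11.9 CPM in RARa403 libraries. Cdc20 in RARa403 2 and 3 lay just above the highest control, and the library labelled RARa403 1 was far higher, with a log2 fold change of 2.62 ± 0.90 (SE). Mki67, with the values given above, had a log2 fold change of 2.88 ± 1.29 (SE), and RARa403 3 was below all controls. Mcm4, also given above, was higher in each RARa403 library, with a log2 fold change of 0.68 ± 0.31 (SE). Ccnb2 (ENSMUSG00000032218, chr9:70407692-70421547) encodes cyclin B2. Ccnb2 in spleen ILC1s stood at 3.99, 0 and 2.29 CPM in control and 125, 13.4 and 0 CPM in RARa403 libraries. It was at 0 in spleen control 2 and RARa403 3, with a log2 fold change of 4.45 ± 2.12 (SE). Ube2c in spleen ILC1s stood at 8.698, 0 and 0 CPM in control and 79.3, 3.77 and 4.93 CPM in RARa403 libraries. The groups overlapped for Ube2c, and the same library again held the maximum. Adjusted p was 1 for each of these 5 fold changes in edgeR's quasi-likelihood test.

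Without the library labelled spleen ILC1 RARa403 1 the median mitosis fold change was 0.34, with 2 mitosis members higher and 1 lower without overlap (9.4% and 9.44% of all genes), and limma-voom with quality weights, all libraries kept, gave 0.67. The log2 fold changes without that library were 1.80 for Spc25, 0.69 for Cdc20, 1.01 for Mki67, 0.81 for Mcm4 and 1.68 for Ccnb2. Without RARa403 3 the median was 2.66 and 15 mitosis members were higher without overlap (8.67% of all genes). Replicates 2 and 3 only gave a median of 0.57 for mitosis and 0.03 for S phase, with 4 mitosis members higher and 2 lower without overlap, where 15.5% and 16.2% of all genes were. The library labelled spleen ILC1 RARa403 1 also had the most hepatocyte transcripts, a sum of 125.5 CPM against 5.08 to 30.3 in the other 5, and 16.9 CPM of neutrophil transcripts against at most 5.32. Erythroid transcripts were highest in RARa403 3 (2387 CPM) and B cell transcripts in control 3 (3394 CPM). Over all 18 libraries the hepatocyte list mean and the mitosis mean had a Pearson r of 0.52, a description over libraries that share groups. Whether other cells added to the mitosis transcripts was not tested. Of 63 other mitosis genes 55 were positive (median 0.90), with 3 higher and 0 lower without overlap (4.12% and 4.87% of all genes). Of 46 other S phase genes 29 were positive (median 0.15), and quiescence genes were positive in 8 of 12 (median 0.13).

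In control mice, liver ILC1s had higher values of the mitosis genes than liver NK cells. Of 28 mitosis members 27 had a positive log2 fold change (median 1.74), and the S phase members had a median of -0.32. Without overlap 12 members, all mitosis genes, were higher in ILC1s, where 8.71% of all genes were, and 2, Mcm3 and Cdt1, were lower, where 8.2% were. In edgeR 0 members were among the 89 genes (0.605%) past the adjusted threshold, and 3 had an unadjusted p under 0.05, where 7.91% of all genes did. DESeq2 called 0 members (2.81% of all genes), limma-voom 1 (Foxm1, with 3.26%) and edgeR without the filter 2 (Cdk1 and Ccna2, with 1.08%). Markers of other cell types moved with this comparison. T cell markers had a positive fold change in 10 of 10 (2 passed the test), with sums of 1662 to 1931 CPM in control ILC1 and 653 to 711 CPM in control NK libraries. Hepatocyte markers were positive in 5 of 5 (sums of 10.6 to 61.3 against 2.64 to 2.999 CPM, median fold change 6.75 on the log2 scale) and erythroid markers in 5 of 6, with 2327 CPM in ILC1 control 1 and at most 48.99 in the other 5 libraries. Macrophage markers were positive in 5 of 7, with 0.217 to 72.5 CPM in ILC1 and 8.71 to 10.6 in NK libraries. B cell markers were positive in 4 of 8, with sums of 416.5 to 791.9 CPM in ILC1 and 223.9 to 239.5 CPM in NK libraries. Endothelial markers were positive in 5 of 5, with 71.8 to 111.9 against 43.5 to 99.4 CPM. Their part in the result was not tested.

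Mad2l1 in liver ILC1s stood at 25.5, 63.3 and 25.4 CPM in control and 9.04, 20.7 and 39.7 CPM in RARa403 libraries. Mad2l1 was higher in each control ILC1 library than in each control NK library, with a log2 fold change of 2.13 ± 0.71 (SE) between the controls. Cdc20, values above, also did not overlap between these controls, with a log2 fold change of 2.200 ± 0.89 (SE). Prc1 in liver ILC1s stood at 136, 56.7 and 52.03 CPM in control and 26.5, 18.3 and 40.2 CPM in RARa403 libraries. Control ILC1 libraries lay above control NK libraries for Prc1, with a log2 fold change of 1.88 ± 0.99 (SE). Cenpe (ENSMUSG00000045328, chr3:135212537-135273611) is the kinesin that brings chromosomes to the spindle equator. Cenpe in liver ILC1s stood at 27.5, 11.2 and 24.9 CPM in control and 0, 8.99 and 3.81 CPM in RARa403 libraries. Cenpe in liver NK cells stood at 4.82, 0 and 0 CPM in control and 40.8, 37.8 and 2.34 CPM in RARa403 libraries. Cenpe was at 0 in 2 of 3 control NK libraries, with a log2 fold change of 3.72 ± 2.03 (SE). Cdt1, in contrast, was lower in control ILC1s, with a log2 fold change of -1.001 ± 0.41 (SE). Adjusted p of these 5 in edgeR's test was 0.34 to 0.699. NK control 1 was the library that set the overlap. Without it 24 mitosis members were higher in ILC1s without overlap (13% of all genes) and the median of the 28 was 3.09, and with replicates 2 and 3 only 24 were higher (19.2% of all genes) with a median of 2.94. Of the other mitosis genes 56 of 63 were positive (median 0.93) and of the other S phase genes 20 of 46 (median -0.10). Of 12 quiescence genes 5 were lower and 1 higher in ILC1s without overlap (8.2% and 8.71% of all genes). Klf2, which keeps lymphocytes quiescent and recirculating, averaged 5.83 ± 1.13 log2 CPM in control ILC1 libraries (SD, n = 3). In control NK libraries it averaged 8.84 ± 0.24, with a log2 fold change of -2.71 ± 0.73 (SE, adjusted p = 0.149) in edgeR. Klf2 passed the test without liver NK RARa403 1 in the fit (log2 fold change -2.72, adjusted p = 0.0223).

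Control spleen ILC1s had lower values of the mitosis genes than control liver ILC1s, and this comparison had the most members without overlap. All 28 mitosis members had a negative log2 fold change (median -2.28), and the S phase members had a median of -0.29. Lower without overlap were 27 members, 24 of them mitosis genes, where 4.15% of all genes were, and 0 were higher, where 4.81% were. In edgeR 0 members passed (0% of all genes) and 5 had an unadjusted p under 0.05 (3.18% of all genes). DESeq2 called 1 member (Spc25, with 0.177% of all genes), limma-voom 0 (0%) and edgeR without the filter 8 (0.238%). The S phase members lower without overlap were Mcm4 and Mcm5, and the regulator was Foxm1. Markers of other cell types moved with this comparison too. B cell markers had a positive fold change in 8 of 8 (median 6.31), with sums of 341.5 to 3394 CPM in spleen and 416.5 to 791.9 CPM in liver controls. NK markers were positive in 9 of 10 (median 1.12), with 2277 to 2767 against 1418 to 1907 CPM. Endothelial markers were positive in 5 of 5 (median 2.18), with 73.3 to 315.9 against 71.8 to 111.9 CPM. Macrophage markers were positive in 7 of 7 (median 1.71), with 6.40 to 188.7 against 0.217 to 72.5 CPM. None passed the test, and their part in the result was not tested.

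Spc25 showed the smallest p of any member, 3.00 to 4.94 CPM in spleen against 29.3 to 60.9 in liver controls, with a log2 fold change of -3.55 ± 0.87 (SE, adjusted p = 1) in edgeR. Mcm4, 94.5 to 124 CPM in spleen and 158 to 216 in liver, had a log2 fold change of -0.86 ± 0.31 (SE). Stmn1 in spleen ILC1s stood at 42.2, 50.05 and 41.6 CPM in control and 126, 89.2 and 41.1 CPM in RARa403 libraries. Between the controls Stmn1 had a log2 fold change of -1.56 ± 0.56 (SE). Cdc20 had a log2 fold change of -2.29 ± 0.89 (SE). Nuf2 (ENSMUSG00000026683, chr1:169497934-169531464) is the partner of NDC80 in the kinetochore. Nuf2 in liver ILC1s stood at 19.4, 12.6 and 14.5 CPM in control and 0, 0 and 9.18 CPM in RARa403 libraries. Nuf2 in spleen ILC1s stood at 0, 0 and 0.529 CPM in control and 13.3, 7.87 and 0 CPM in RARa403 libraries. Spleen controls held 3 counts of Nuf2 in all and liver controls 253, a ratio of 116 (95% exact interval 39.3 to 567, counting error only). Spleen RARa403 libraries held 134 counts, a ratio of 46.9 to the spleen controls (interval 15.7 to 230.0, counting error only). Of these counts 86 came from the library labelled spleen ILC1 RARa403 1, 48 from RARa403 2 and 0 from RARa403 3. Neither interval holds the spread among libraries. Adjusted p in edgeR was 1 for Mcm4, Stmn1, Cdc20 and Nuf2 too. Without liver ILC1 control 1 the mitosis median was -2.01, and leaving out any 1 library left 24 to 26 mitosis members lower without overlap (7.54% to 9.57% of all genes). Replicates 2 and 3 only gave 26 (16.1% of all genes) and a median of -2.36.

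Other mitosis genes were negative in 57 of 63 cases between spleen and liver controls (median -1.41), with 25 lower without overlap (4.15% of all genes). Cenph, a kinetochore gene, averaged -1.53 ± 0.31 log2 CPM in spleen and 2.91 ± 0.88 in liver controls (SD, n = 3), near the value of -1.70 that stands for a count of 0. Other S phase genes were negative in 32 of 46 (median -0.24). Tipin, which protects stalled replication forks, averaged 4.67 ± 0.38 and 6.15 ± 0.36, with a log2 fold change of -1.49 ± 0.38 (SE, adjusted p = 1) in edgeR. Quiescence genes were positive in 10 of 12 (median 0.29). The control liver ILC1 libraries enter 3 of the 5 comparisons, and the control NK and control spleen libraries 2 each, so these results are not independent of each other.

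**Figure D5:**
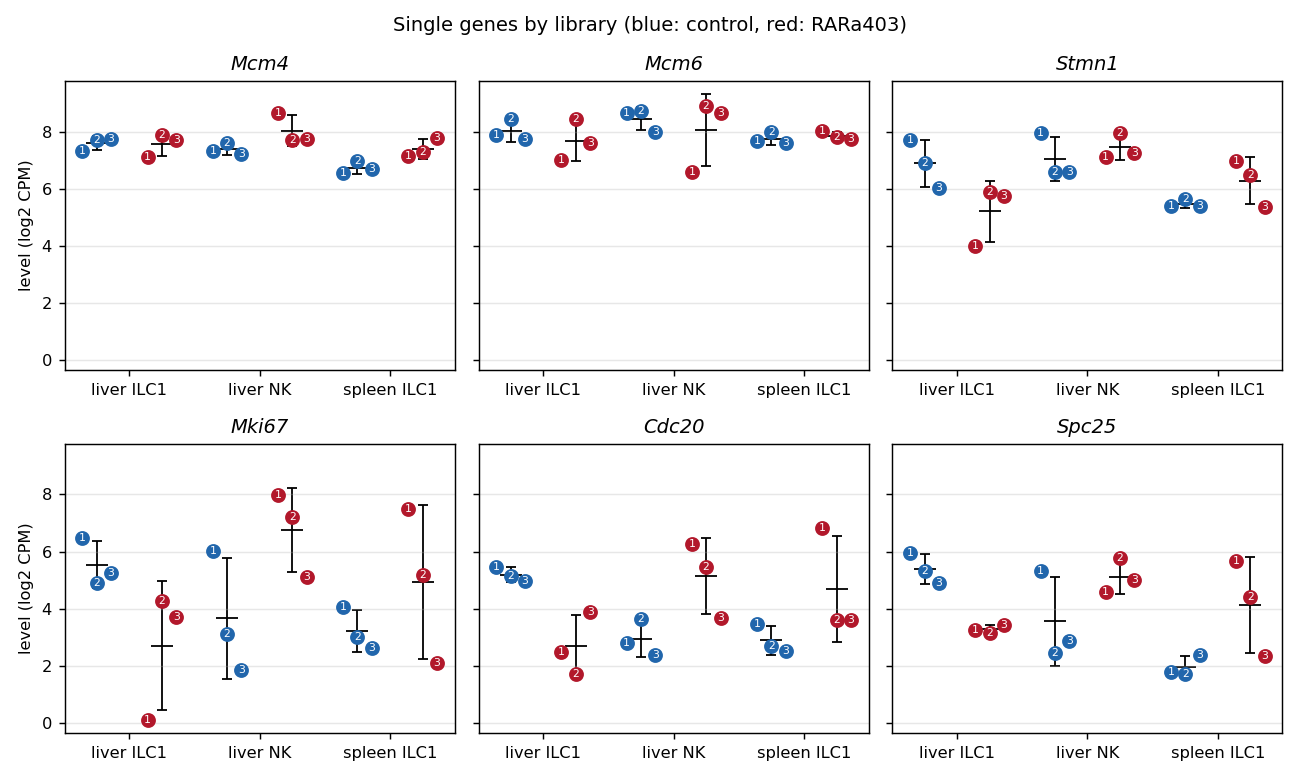
Points are the log2 CPM of Mcm4, Mcm6, Stmn1, Mki67, Cdc20 and Spc25 in each of the 18 libraries, by population and genotype, with the group mean and SD. Mcm6 differs little between groups, while Cdc20 is 31.2 to 43.9 CPM in control and 3.00 to 14.4 in RARa403 liver ILC1s and has the opposite order in NK cells and spleen ILC1s.

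Whether the RARa403 difference itself varied between populations was tested as an interaction. Between liver ILC1s and NK cells all 28 mitosis members had a lower RARa403 effect in ILC1s (median difference -4.09 on the log2 scale), and the S phase members had a median of -0.54. In edgeR 0 of 50 members passed (0% of all genes) and 15 had an unadjusted p under 0.05 (6.2% of all genes), DESeq2 called 1 member (Cdc20, with 0.292% of all genes), limma-voom 0 (0%) and edgeR without the filter 13 (0.817%). The interaction was -4.74 ± 1.26 (SE) for Cdc20. For Prc1 it was -4.62 ± 1.42 (SE). Ube2c gave -10.08 ± 3.21 (SE), Cdk1 -6.99 ± 2.26 (SE) and Spc25 -3.26 ± 1.13 (SE). Adjusted p was 0.798 for all 5. Without the library labelled liver ILC1 RARa403 1 the median difference was -3.51 for the mitosis members and -0.31 for the S phase members, and the 5 genes gave -4.53, -4.56, -9.54, -6.79 and -3.25 in the same order. Without liver NK RARa403 1 the mitosis median was -3.96, with -2.61 for Prc1 and -4.78 for Cdk1. Cdc20 was thus lower without overlap in RARa403 liver ILC1s and higher without overlap in RARa403 NK cells and spleen ILC1s, a difference between populations that edgeR did not call. Of the other mitosis genes 61 of 63 had a negative interaction (median -2.71), and 14 had an unadjusted p under 0.05 (6.2% of all genes). Kif4, a chromosome kinesin, averaged 3.63 ± 0.23 and -1.13 ± 0.99 log2 CPM in control and RARa403 liver ILC1s and -0.31 ± 2.42 and 5.21 ± 1.97 in NK cells (SD, n = 3).

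Between spleen and liver ILC1s all 28 mitosis members had a higher RARa403 effect in spleen (median difference 3.997), and the S phase members had a median of 0.32. In edgeR 0 members passed (0% of all genes) and 9 had an unadjusted p under 0.05 (2.7% of all genes), DESeq2 called 2 members (Spc25 and Cdc20, with 0.122% of all genes), limma-voom 0 (0%) and edgeR without the filter 10 (0.125%). Spc25 gave 4.97 ± 1.17 (SE) and Cdc20 4.89 ± 1.27 (SE). Stmn1 gave 2.56 ± 0.79 (SE), Ube2c 10.202 ± 3.22 (SE) and Mki67 5.12 ± 1.81 (SE). Adjusted p was 1 for all 5, and both libraries labelled RARa403 1 enter this contrast, on opposite ends of the mitosis range. Without both, the median difference was 1.82 for the mitosis members and -0.02 for the S phase members, and the 5 genes gave 3.98 (Spc25), 2.75 (Cdc20), 1.77 (Stmn1), 6.93 (Ube2c) and 2.697 (Mki67). Without the library labelled spleen ILC1 RARa403 1 alone the mitosis median was 2.28, and without the library labelled liver ILC1 RARa403 1 alone it was 3.73. Of 63 other mitosis genes 60 had a positive interaction, and the median over the 63 was 1.82.

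Across the 18 libraries the mitosis members moved together more than the S phase members did. The median Pearson r of their log2 CPM was 0.58 over 378 pairs of mitosis genes, 0.40 over 153 pairs of S phase genes and 0.26 over 504 pairs of 1 gene from each list. Without liver NK RARa403 1 these medians were 0.66, 0.45 and 0.37. These are descriptions over libraries that share groups and depth. Mki67 and Birc5 had the highest r with the mean of the other mitosis members, both 0.91, and Ndc80 the lowest of that list, 0.35. Among S phase genes Rrm2 and Tyms were the most like the mitosis genes (r of 0.76 each), while Mcm2, Cdt1 and Chaf1b had r of -0.09, -0.06 and -0.04. The mean of the 63 other mitosis genes had an r of 0.94 with that of the mitosis members, and that of the 12 quiescence genes an r of -0.63.

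Outside all lists, the protein-coding genes most like the mean of the 50 members, among 11897 ranked by Pearson r over the 18 libraries, were Mxd3, a Max-binding repressor, at 0.88, Tuba1b, an alpha-tubulin, at 0.88 and Hmgb2, a chromatin protein, at 0.84. Pimreg and Stil followed at 0.81 each, Stil being a centriole duplication factor. Prkca, protein kinase C alpha, and the histone gene Hist1h2ao also reached 0.81. Pclaf, the PCNA clamp-associated factor, the histone variant gene H2afx and the histone gene Hist1h2ag had an r of 0.80. Pclaf ranged from 1.28 to 7.87 log2 CPM and Hmgb2 from 8.41 to 9.81, so the likeness holds at very different levels and ranges. These genes are given as a description with no p.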

How the data were processed

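The deposited table holds whole-number gene counts for 18 libraries, with 0 columns left over. The authors made these counts with fastp 0.23.0 (trimming), HISAT2 2.1.0 (alignment to mm10) and featureCounts of Subread 1.6.5, per the submitters' processing notes. Annotation release, strand setting and handling of multiply aligned reads were not given in the sources used here, and 19 members overlap another gene, 14 of them on the other strand. The 849 genes without a symbol held 0.0544% of the counts. Genes were filtered with filterByExpr (minimum count 10), scaled by TMM and fitted with edgeR 4.0.16 (quasi-likelihood, 1 mean for each of the 6 groups, all 18 libraries, R 4.3.3), which gave a common biological coefficient of variation of 0.862. P-values were adjusted over the 14714 genes by the Benjamini-Hochberg method, and 0.05 was the threshold. A prior count of 2 was added for log2 CPM. List means are the mean log2 CPM of the members. Groups without overlap are those in which every library of 1 lies above every library of the other in log2 CPM.

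Named were the 5 members of smallest p per comparison whose higher group averaged 3 log2 CPM or more, and up to 3 genes of each pathway list by p, beside Mki67, Top2a, Ccnb1, Cdc20, Birc5, Stmn1, Mcm2 to Mcm7 and Pcna. The members, lists and tests were chosen with earlier results of these data known. Promoters came from RefSeq (GRCm38.p6). Alternatives were DESeq2 1.42.0, RLE scaling, no filter, only the groups compared, limma-voom (limma 3.58.1), a replicate block, the opening digit of the description, replicates 2 and 3 only, liver NK RARa403 1 left out of the fit, and each library left out. The counts of mitosis members without overlap in the last settings were added after seeing the data. So were the interaction medians and named pathway genes in every setting, and the fit without both libraries labelled ILC1 RARa403 1. The steps were also run on simulated counts with known changes, each gene drawn on its own. The outcome is not given here, and no result above rests on it.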

Additional observations from a re-analysis of the deposited data

How the results depend on the processing

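The medians over the S phase and mitosis members and over each list kept their direction wherever they had been over 0.5 in size, and no call was reversed. Of the genes named, the fold changes of Gins4, Rbl1 and Foxp1 in NK cells, none of them called, turned to -0.21, -0.054 and -0.33 without liver NK RARa403 1 (with 1 library left out they ran up to 2.45, 2.93 and 2.12) and to -0.14, -0.15 and -0.42 with replicates 2 and 3 only, and limma-voom gave -0.13 for Gins4 and -0.29 for Foxp1. Without the filter on low counts edgeR called 5 members in liver ILC1s (0.131% of all genes), 7 in NK cells (1.59%) and 3 in spleen ILC1s (0.0976%). In that setting 2 were called between control liver ILC1s and NK cells (1.08%) and 8 between control spleen and liver ILC1s (0.238%). The interactions gave 13 with NK cells (0.817%) and 10 with spleen (0.125%). DESeq2 called 1 member in NK cells (1.05% of all genes) and 1 between control spleen and liver ILC1s (0.177%). In the interactions it called 1 and 2 (0.292% and 0.122%). Between control liver ILC1s and NK cells, 1 member was called with only the groups compared (Cdc20, with 2.98% of all genes). Foxm1 was called there by limma-voom (3.26%) and with replicates 2 and 3 only (1.56%). The cause of these differences was not tested.

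Leaving out each library in turn moved the mitosis median from 1.86 to 4.01 in NK cells, from 1.27 to 3.09 between control ILC1s and NK cells, and the median of S phase and mitosis members from -1.78 to -1.03 between control spleen and liver ILC1s, where replicates 2 and 3 only gave -1.11 against -1.59. The median interaction of the mitosis members between liver ILC1s and NK cells moved from -4.09 to -5.65 without liver NK control 1. For spleen against liver ILC1s it moved from 3.997 to 2.49 with limma-voom and 1.91 with replicates 2 and 3 only. It was 1.82 without both libraries labelled ILC1 RARa403 1. Leaving out each library gave -5.65 to -3.296 and 2.28 to 4.79. Restricted to the 12 S phase and 8 mitosis members with at least 3 counts in every library, the S phase means were 6.25 (control liver ILC1), 6.17 (control NK), 5.93 (control spleen) and 6.22 (RARa403 spleen). The mitosis means were then 5.50 and 3.86 in control and RARa403 liver ILC1s, 4.09 and 5.97 in NK cells and 3.77 in control spleen ILC1s, higher because low members were left out.

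Over all genes, the 89 called between control liver ILC1s and NK cells became 414 with DESeq2, 355 without the filter, 343 with only the groups compared, 479 with limma-voom, 290 without liver NK RARa403 1, 221 with replicates 2 and 3 only, and 18 to 55 with 1 library of the compared groups left out.

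Replicate numbers were taken to pair the libraries only where all 3 same-number correlations were above 0.1. No comparison met that limit, which does not show whether libraries with the same number shared an animal. With a replicate block 0 members were called in each comparison, and 69 genes in place of 89. In both control comparisons every library correlated best with its own number, a hint from the data only. Same-number correlations were 0.073 to 0.102 between control liver ILC1s and NK cells, with at most -0.021 for other pairs. Between control spleen and liver ILC1s they were 0.016 to 0.124, with at most -0.003 for other pairs. Depth limits what a count of 0 shows, and its part in the number of mitosis members at 0 was not tested. Liver ILC1 control 2, with 3452279 counts, had 0 mitosis members at 0, and spleen ILC1 RARa403 3, with 7344750 counts, had 10.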
